A study of Canis lupus familiaris with 32 samples.

Results

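Osteosarcomas of 32 dogs were divided by the histology of each tumor into those in which a fibroblastic component (FB) was named, alone or beside others, and those in which it was not. FB was named in 16 of the 32 tumors. Of these, 11 were osteoblastic and fibroblastic, 3 also had a chondroblastic component, 1 also had a telangiectatic component and 1 was fibroblastic alone. The 16 tumors without FB comprised 8 that were osteoblastic, 3 osteoblastic and chondroblastic, 3 osteoblastic and telangiectatic and 2 chondroblastic alone. The subtype came from the study's clinical data and was read on an adjacent, decalcified piece of the tumor, not on the powdered bone from which RNA was taken.

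Osteosarcoma is a malignant bone tumor whose cells lay down osteoid, the unmineralized bone matrix. The subtypes are named for the matrix that prevails: bone in osteoblastic, cartilage in chondroblastic and spindle cells with collagen fibers in fibroblastic areas, while telangiectatic tumors hold blood-filled spaces. Fibroblasts and osteoblasts share much of their program, including type I collagen. Osteopontin is a protein of bone matrix, alkaline phosphatase marks the osteoblast lineage, and type II collagen marks cartilage.

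The dogs had known survival, and the study compared short survivors (SS) with long survivors (LS). Each tumor was taken at surgery before any other therapy and was hybridized on 1 two-color cDNA array against a pool to which every tumor had contributed RNA. The log base of the deposited ratios is not stated; they are read here as log2, and the folds rest on that reading. A ratio of 0 means a level equal to that of the pool. The tumors with FB came from 7 SS and 9 LS dogs and those without from 9 SS and 7 LS dogs. Either group held 8 Cy5-labeled and 8 Cy3-labeled tumors, with the pool in the other dye. The FB group held 10 males and 6 females of 10 breeds or crosses, among them 5 Rottweilers, and the group without FB 8 males and 8 females of 11 breeds or crosses, with 2 Rottweilers. The median age was 7.29 years (3.67 to 9.67) with FB and 7.04 years (2.25 to 11.8) without. The grade was high in 12 tumors with FB and 13 without, and medium in 3 in each group. The only low-grade tumor, the purely fibroblastic tumor 28, was in the FB group, as was the only extraskeletal one. Chemotherapy followed surgery in 11 dogs with FB and 10 without.

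The arrays held 22176 probes, of which 7694 carried 1 gene symbol (5246 genes) and 14482 none. Array medians lay between -0.03 and 0.02. The orientation of the dyes went with differences at most probes, with 14315 probes (64.6%) apart between Cy5 and Cy3 tumors at a limma adjusted p under 0.10. The strength of this dye effect, as the slope of each array on the effect in the others, had a mean of 0.928 with FB and 0.855 without on Cy5 arrays, and of 1.03 with FB and 0.932 without on Cy3 arrays. Values within each orientation are therefore given beside the pooled ones for many genes and lists. A pooled value given alone need not hold in both orientations. Depth is not defined for arrays, and their number limits the precision. In bulk tumor RNA, fewer cells of a type and less RNA per cell cannot be told apart.

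No gene passed the test between tumors with and without FB. Across all 22176 probes, with dye orientation and survival group in the model, limma called 0 (0%) at an adjusted p under 0.10, and the smallest adjusted p was 0.503. At an unadjusted p under 0.05 there were 618 probes with a higher ratio in FB tumors (2.79% of all) and 956 with a lower one (4.31%). The difference was above 0 for 10925 probes (49.3%), with a median of -0.00182 on the log2 scale. Counts of 0 were also found within the Cy5 tumors, the Cy3 tumors, the SS tumors and the LS tumors taken alone, with 1276, 1021, 857 and 1276 probes at an unadjusted p under 0.05. In the same model 83 probes (0.374%) differed between SS and LS at an adjusted p under 0.10. The precision was such that the 95% interval of the difference was within 0.5 on either side of 0 for 84.2% of probes and within 1 for 95.7%. Each tumor is from a separate dog and was on 1 array. The p-values thus measure the spread between dogs together with that between arrays.

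Nor did the difference itself vary past the threshold with survival or dye. The difference between tumors with and without FB was compared between LS and SS, with 0 probes called (0%) and 644 at an unadjusted p under 0.05, and between Cy5 and Cy3, again with 0 called (0%) and 859 at an unadjusted p under 0.05.

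Correlations among FB tumors were close to those among the other tumors. After dye and survival group were taken out, the median correlation across 22171 probes was -0.03 for the 120 pairs of FB tumors, -0.03 for the 120 pairs without FB and -0.04 for the 256 mixed pairs. These are correlations across probes of the same arrays and are given as a description. The most similar tumor belonged to the same group for 15 of 32 tumors, and for 17 of 32 when only the 500 most variable probes were used. The SD among FB tumors over that among tumors without FB had a median of 0.973.

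The matrix genes of fibrous tissue did not set the groups apart. COL1A2, a chain of type I collagen, ranged from -3.09 to 0.51 with a median of -0.31 in FB tumors, against -4.31 to 1.61 with a median of -0.18 in tumors without FB. The groups overlapped over most of their range. The difference was -0.30 (SE 0.40, 95% interval -1.12 to 0.53, limma adjusted p = 0.95), and the other 2 probes of COL1A2 gave 0.31 and 0.14. In the same order, the COL1A2 probes had -0.94, -0.73 and -0.68 in Cy5 tumors and 0.31, 1.31 and 0.94 in Cy3 tumors. COL3A1, the chain of type III collagen of loose fibrous tissue, had a median of -0.10 with FB (-2.79 to 1.11) and -0.50 without (-2.22 to 2.11), and its 2 probes differed by -0.03 (95% interval -0.79 to 0.73) and 0.02 (-1.07 to 1.11). The second probe had -1.31 in Cy5 and 1.204 in Cy3 tumors. For COL5A2, a chain of the type V collagen that starts fibril assembly, the median was 0.20 with FB (-2.05 to 1.47) and -0.41 without (-3.78 to 1.42). Its 5 probes had differences of 0.43 to 0.56, none past the threshold, and its lowest values were those of tumors without FB.

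DCN, which codes for the collagen-binding proteoglycan decorin, had a difference of -0.39 (SE 0.53) and a second probe at -0.22. FN1 (fibronectin) had 0.26 (SE 0.28), 0.24 and 0.09 on its 3 probes, and VIM (vimentin), the intermediate filament protein of mesenchymal cells, had -0.06 (SE 0.22), 0.09 and -0.01. SPARC, a matrix protein abundant in bone and fibrous tissue alike, had 0.09 to 0.13 on 5 probes. These pooled SPARC values joined opposite signs, -0.76 to -0.63 in Cy5 tumors and 0.83 to 1.06 in Cy3 tumors. None of these genes passed the test. For COL5A2 the difference was -0.27 in Cy5 tumors and 1.36 in Cy3 tumors, for COL3A1 -0.78 in Cy5 and 0.63 in Cy3, and for DCN -1.18 in Cy5 and 0.32 in Cy3, while the test of the Cy5 minus Cy3 difference called no probe. COL1A1, COL6A3, LUM, POSTN and TNC had no named probe.

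**Figure D1:**
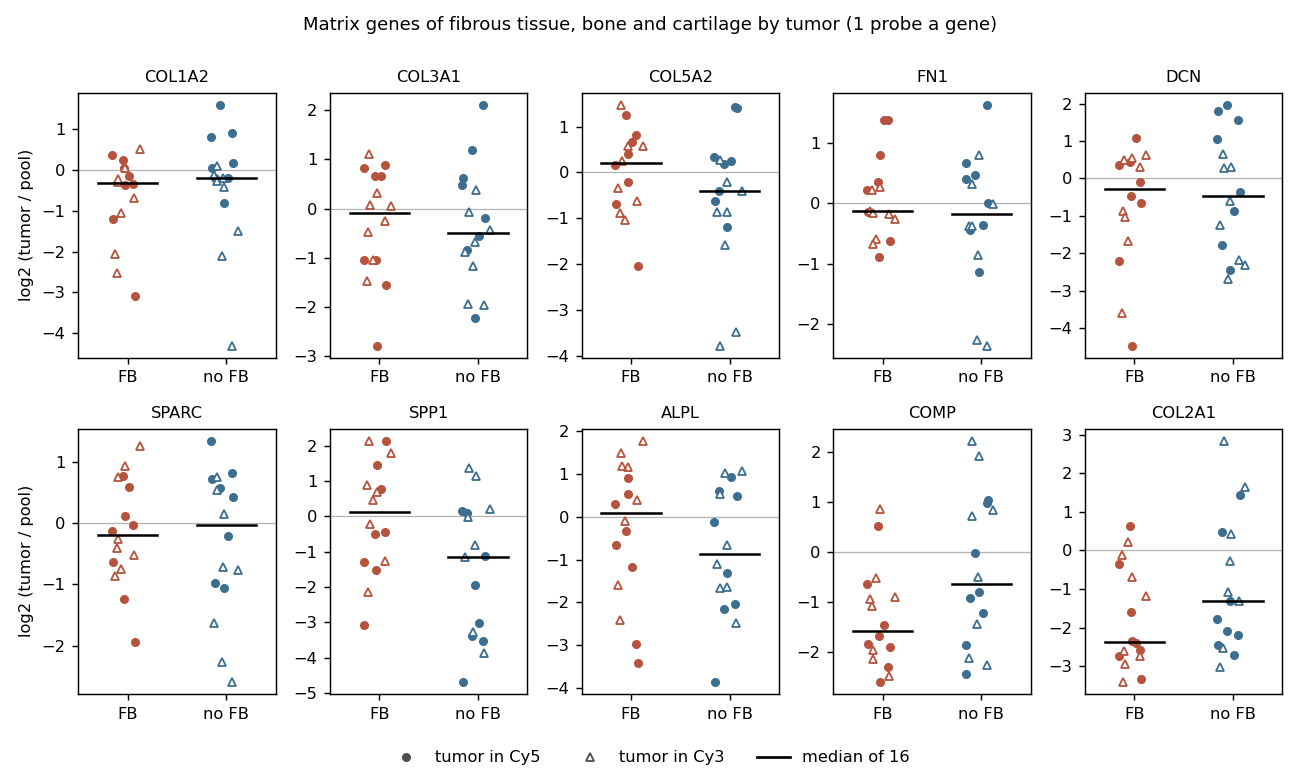
Log2 ratio of tumor over pool (y axis) of 10 matrix genes in each of the 16 tumors with FB (left in each panel) and the 16 without (right), 1 probe a gene, with filled circles for Cy5 and open triangles for Cy3 tumors and the bar at the group median. The groups overlapped for every gene shown; the medians were furthest apart for SPP1 (0.11 with FB, -1.14 without) and COL2A1 (-2.38 with FB, -1.32 without).

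By list, the 22 probes of 8 fibrillar and network collagens had a median difference of 0.252, with 17 above 0 and 0 at an unadjusted p under 0.05 in either direction. That median was -0.262 within Cy5 tumors and 0.552 within Cy3 tumors, and the part of the dye strengths given above in this split was not tested. The 46 probes of 19 fibrous matrix glycoproteins and proteoglycans had a median of -0.05, with 15 above 0. Within Cy5 tumors that median was -0.283 and within Cy3 tumors 0.0486. In this list 2 of 46 probes were lower at an unadjusted p under 0.05 and 0 higher, against 4.31% and 2.79% of all probes. The 2 were of EMILIN1, a glycoprotein of elastic fibers (-0.24, SE 0.08, its 5 other probes -0.07 to 0.02), and LAMA4, a laminin chain of vessel basement membranes (-0.25, SE 0.09, its 5 other probes -0.12 to -0.04). The list of fibroblast and mesenchymal markers (8 probes of 6 genes, VIM with 3 probes) had a median of 0.05. Within Cy5 tumors it was -0.166 and within Cy3 tumors 0.23. The smallest p in that list was that of S100A4, a calcium-binding protein of fibroblasts (0.38, SE 0.19). The median over all probes was -0.00182.

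Among the enzymes that mature collagen, 2 of 10 probes were at an unadjusted p under 0.05, both with a higher ratio in FB tumors. For all probes the share higher at that p was 2.79%. P4HA2, a catalytic subunit of prolyl 4-hydroxylase, had a median of 0.15 with FB (-1.35 to 1.39) and -0.39 without (-2.79 to 0.32). Of the 16 FB tumors 14 lay above the mean of the others, and the groups overlapped. The difference was 0.70 (SE 0.25, limma adjusted p = 0.552), 0.60 in Cy5 and 0.68 in Cy3 tumors. CRTAP, a cartilage-associated protein of the prolyl 3-hydroxylase complex, had 0.36 (SE 0.14), and P4HA1, the paralog of P4HA2, 0.37 (SE 0.20). The list as a whole had a median of 0.07 with 6 of 10 probes above 0, and of -0.092 in Cy5 and 0.233 in Cy3 tumors. TIMP1, an inhibitor of matrix metalloproteinases, had a difference of 0.58 (SE 0.26), 0.99 in Cy5 and 0.15 in Cy3 tumors.

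SPP1, which codes for osteopontin of bone matrix, had the largest difference of the marker genes. Its ratio was -3.07 to 2.14 with a median of 0.11 in FB tumors, and -4.69 to 1.37 with a median of -1.14 in tumors without FB. The 4 highest values were all from tumors with FB, 3 of them osteoblastic and 1 purely fibroblastic, and the 5 lowest from tumors without FB. The difference was 1.57 (SE 0.58, 95% interval 0.38 to 2.75), a fold of 2.97, with 13 of 16 FB tumors above the mean of the others. It did not pass over all probes (limma adjusted p = 0.571). It was 2.39 in Cy5 and 1.09 in Cy3 tumors, and 1.82 in SS and 1.62 in LS tumors. The osteoblastic tumors with FB against the purely osteoblastic tumors alone gave 1.65.

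The other bone genes had smaller differences than SPP1, and that of ALPL was imprecise. ALPL, the alkaline phosphatase of mineralizing osteoblasts, ranged from -3.43 to 1.78 with a median of 0.10 in FB tumors, against -3.86 to 1.07 with a median of -0.88 in tumors without FB (difference 0.45, SE 0.53). The highest ALPL ratio, not adjusted for dye, belonged to the Cy3 tumor 28, which was called fibroblastic alone. PHEX, a membrane peptidase of osteoblasts and osteocytes, had 0.21 (SE 0.13). All 12 probes of the osteoblast and bone matrix list, 5 of them SPARC, had a difference above 0, and 1 was at an unadjusted p under 0.05. Of all probes, 49.3% were above 0 and 2.79% were higher at that p. The list's median was 0.107, with -0.209 in Cy5 and 0.843 in Cy3 tumors. BGLAP, IBSP and RUNX2 had no named probe.

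Cartilage genes had negative differences, none of which passed. COMP, an oligomeric protein of cartilage and tendon matrix, was between -2.59 and 0.86 with a median of -1.57 in FB tumors, and between -2.43 and 2.22 with a median of -0.65 in tumors without FB. Of the FB tumors 14 of 16 lay below the mean of the others. The difference was -1.001 (SE 0.44, 95% interval -1.90 to -0.10, limma adjusted p = 0.652), and the other 2 probes gave -0.79 and -0.91. COL2A1, the chain of type II collagen, had medians of -2.38 with FB (-3.40 to 0.62) and -1.32 without (-3.03 to 2.84). Its difference was -0.93 (SE 0.54) and -0.40 on a second probe. MATN2, a matrilin, had -0.45 (SE 0.35), and UCMA, a secreted protein of growth plate cartilage, -0.12 (SE 0.09). Thus 0 of 7 probes were above 0, the list's median was -0.792, and 1 probe (COMP) was at an unadjusted p under 0.05. Of all probes, 49.3% were above 0 and 4.31% were lower at that p. ACAN and SOX9 had no named probe.

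In ratios not adjusted for dye, chondroblastic histology did not go with a higher median of COL2A1 on the probe used here. A chondroblastic component was named in 3 tumors with FB and in 5 without. COL2A1 had a median of -2.27 (-3.03 to 1.65) in the 8 chondroblastic tumors, against -1.46 (-3.40 to 2.84) in the other 24, and COMP had a median of -0.93 (-2.59 to 0.98) in the 8, against -1.01 (-2.48 to 2.22) in the 24. The purely chondroblastic tumors 10 and 20 had COL2A1 at -3.03 and -2.70. All of these ratios are from 1 probe a gene and are not adjusted for dye. With all 8 chondroblastic tumors left out, the difference between tumors with and without FB was -0.996 for COMP and -1.27 for COL2A1.

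FRZB, a secreted inhibitor of Wnt ligands known from cartilage, had the second smallest p of the named genes and the smallest among those lower in FB tumors. It was -1.06 to 0.09 with a median of -0.45 in FB tumors, and -0.75 to 1.76 with a median of -0.13 in tumors without FB. All 16 FB tumors lay below the mean of the others, while 10 of the 16 tumors without FB lay within the range of the FB tumors. The difference was -0.68 (SE 0.16, 95% interval -1.01 to -0.34), and a second probe gave -0.34 (SE 0.10). It was -0.69 in Cy5 and -0.68 in Cy3 tumors, but -0.22 in SS and -1.15 in LS tumors. The LS minus SS difference of -0.93 did not pass over all probes (limma adjusted p = 1). The 4 highest values came from LS tumors without FB (tumors 29, 26, 25 and 22).

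Other members of the Wnt list had no common direction. CTNNB1, which codes for beta-catenin, had 0.42 (SE 0.18), WIF1, another secreted Wnt inhibitor, 1.11 (SE 0.76) and DKK3 -0.37 (SE 0.28). Over its 19 probes the median was -0.03, with 1 higher and 2 lower at an unadjusted p under 0.05, the 2 being FRZB. The shares of all probes were 2.79% higher and 4.31% lower at that p.

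ATP6V1E1, the E subunit of the vacuolar proton pump (V-ATPase), had the smallest p of all named genes. This pump acidifies lysosomes in every cell and the resorption pit under osteoclasts. The ratio was -0.25 to 0.89 with a median of 0.12 in FB tumors, and -0.77 to 0.19 with a median of -0.23 in tumors without FB. All 16 FB tumors lay above the mean of the others, and the ranges overlapped between -0.25 and 0.19. The difference was 0.50 (SE 0.12, 95% interval 0.26 to 0.73, a fold of 1.41, limma adjusted p = 0.503), 0.62 in Cy5 and 0.40 in Cy3 tumors, and 0.74 in SS and 0.27 in LS tumors. A second probe gave 0.16 (SE 0.13).

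**Figure D2:**
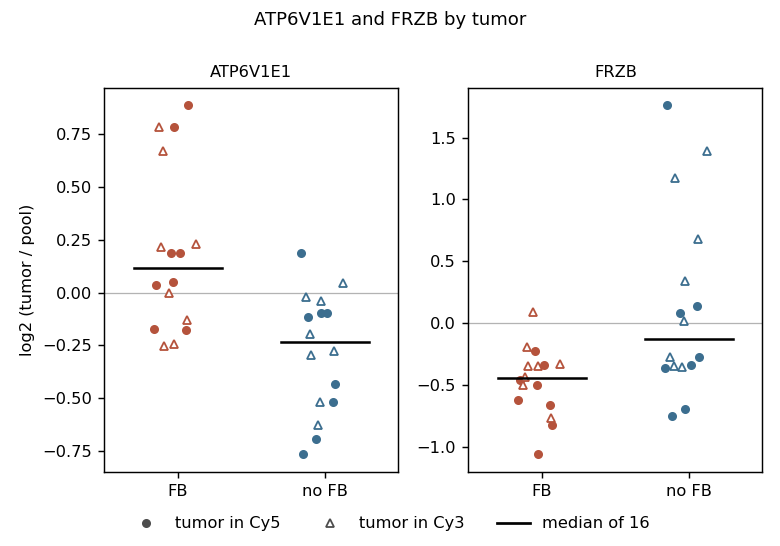
Log2 ratio of tumor over pool (y axis) of ATP6V1E1 and FRZB in the 16 tumors with FB (left) and the 16 without (right), with filled circles for Cy5 and open triangles for Cy3 tumors and the bar at the group median. ATP6V1E1 had a median of 0.12 with FB and -0.23 without; FRZB had -0.45 with FB and -0.13 without, with a few high values among the tumors without FB.

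A further subunit, ATP6V1F, was also among the 12 positive differences with the smallest p (0.33, SE 0.09, second probe 0.22). Since both lay near the top, all V-ATPase probes were examined, a family chosen after its values were seen. Of 31 probes for 17 genes, 27 had a difference above 0, and 16 were at an unadjusted p under 0.05, all of these higher in FB tumors. None passed. Over all probes, 49.3% were above 0 and 2.79% were higher at that p. The 31 include the probes of ATP6V1E1 and ATP6V1F that led to the choice of this family. The median difference of the family was 0.219, with 0.324 in Cy5, 0.17 in Cy3, 0.262 in SS and 0.201 in LS tumors. ATP6AP1, an accessory subunit, had medians of 0.02 with FB (-0.27 to 1.18) and -0.12 without (-0.42 to 0.10), a difference of 0.31 (SE 0.09), and its other probes gave 0.39 and -0.01. ATP6V0D1, a subunit of the membrane sector, had 0.21 (SE 0.07), and ATP6V0C, which forms the proton channel, 0.47 (SE 0.17), 0.40 and 0.02 on 3 probes. ATP6V0A1, a form of the pump's a subunit, had 0.23, -0.12 and -0.08.

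The osteoclast list held 17 probes of 10 genes, of which 15 had a difference above 0 and 7 were at an unadjusted p under 0.05, all higher in FB tumors. Over all probes, 49.3% were above 0 and 2.79% were higher at that p. The list's median was 0.305, with 0.284 in Cy5 and 0.235 in Cy3 tumors. The 7 were all probes of the proton pump, which makes up 11 of the 17. Among them were ATP6V1C1 (0.44, SE 0.15), ATP6V1B2 (0.37, SE 0.13) and TCIRG1, the osteoclast form of the pump's a subunit (0.16, SE 0.07). Of the 6 other probes, for 5 genes, 0 were at an unadjusted p under 0.05 and the median was 0.153. CTSK, the collagen-degrading cathepsin of osteoclasts, was -2.89 to 2.25 with a median of -0.52 in FB tumors, and -3.41 to 1.01 with a median of -0.16 in tumors without FB (difference 0.25, SE 0.41). CA2, the carbonic anhydrase that feeds protons to the pump, had 0.72 and 0.41, and TNFRSF11A, the receptor for the osteoclast cytokine RANKL, 0.06. ACP5 had no named probe. The macrophage and monocyte list, which shares lysosomal function with osteoclasts, had a median of 0.10 over 17 probes, 13 of them above 0, with 3 higher at an unadjusted p under 0.05: CD14, the endotoxin co-receptor (0.33, SE 0.12, second probe 0.06), the scavenger receptor MARCO (0.38, SE 0.16; 0.24 without tumor 4) and the lysosomal glycoprotein CD68 (0.53, SE 0.25).

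Genes of the mitochondrial respiratory chain had mostly positive differences. Of 52 probes for 31 genes, 49 were above 0 (94.2%, against 49.3% of all probes). At an unadjusted p under 0.05, 9 were higher and 0 lower (2.79% and 4.31% of all probes), and 0 passed. The median was 0.138, with 0.191 in Cy5, 0.1 in Cy3, 0.0763 in SS and 0.207 in LS tumors. The mean ratio of the list in a tumor was -0.40 to 0.41 with a median of 0.08 in FB tumors, and -0.62 to 0.37 with a median of -0.12 in tumors without FB, and the groups overlapped. COX8A, a subunit of cytochrome c oxidase, had a difference of 0.37 (SE 0.13, second probe 0.27), with 15 of 16 FB tumors above the mean of the others. NDUFS1 and NDUFA8, subunits of complex I, had 0.33 (SE 0.12) and 0.40 (SE 0.16). Outside the list, UQCR10 of complex III had 0.68 (SE 0.20) and NDUFC1 of complex I 0.51 (SE 0.15). Both were picked from the 12 positive differences with the smallest p, so their direction was set by that choice. The 12 negative differences with the smallest p also held mitochondrial genes, COQ10A (-0.39) and ATP23 (-0.50). The UQCR10 difference was 1.17 in Cy5 and 0.26 in Cy3 tumors, and tumor 4, an FB tumor, reached 2.61.

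The secretory pathway and protein folding list gave 43 of 48 probes above 0 (49.3% of all probes), with a median of 0.162 (0.157 in Cy5 and 0.122 in Cy3 tumors). At an unadjusted p under 0.05, 9 were higher and 0 lower (2.79% and 4.31% of all probes). SRP72, of the particle that brings nascent chains to the endoplasmic reticulum, had 0.30 (SE 0.11). SSR2, of the translocon, had 0.35 (SE 0.14, second probe 0.30), and CANX, the chaperone calnexin, 0.25 (SE 0.10, second probe 0.29). SPCS3, a subunit of the signal peptidase, is not on the list. Its medians were 0.27 with FB (-0.32 to 0.91) and -0.32 without (-1.07 to 0.95). Its difference was 0.45 (SE 0.13). SPCS3 was picked from the positive differences with the smallest p, so its direction was set by that choice. The negative differences with the smallest p held TRAPPC13, of a vesicle tethering complex (-0.20, SE 0.06).

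Glycolysis and hypoxia genes had a median of 0.192, but it was 0.274 in Cy5 tumors and 0.0104 in Cy3 tumors. Of their 38 probes, 31 were above 0 (49.3% of all probes) and 9 were higher at an unadjusted p under 0.05 (2.79% of all probes). GAPDH, for one, had 0.44 (SE 0.17) in all tumors, 0.83 in Cy5 and 0.01 in Cy3 tumors. GPI, the second enzyme of glycolysis, had 0.34 (SE 0.11), 0.56 in Cy5 and 0.15 in Cy3 tumors. The hypoxia genes of the list went both ways. BNIP3 (-0.165 to -0.0524 over its probes), SLC2A1 (-0.97) and EGLN1 (-0.13) were negative. EGLN3 (0.22), ANKRD37 (0.38), P4HA1 (0.37), ADM (0.10), CA12 (0.14) and VEGFA (0.14) were positive. Cytosolic ribosomal proteins had no shift: of 111 probes 48 were above 0 and the median was -0.02. At an unadjusted p under 0.05, 4 were lower (4.31% of all probes). All 7 probes of RPL10A had a negative difference, -0.30 (SE 0.10) to -0.10. The actin cytoskeleton list had a median of 0.126 (0.01 in Cy5 and 0.202 in Cy3 tumors), with ACTG1, gamma-actin, at 0.40 (SE 0.16) and MYL12B, a myosin light chain, at 0.24 (SE 0.10).

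**Figure D3:**
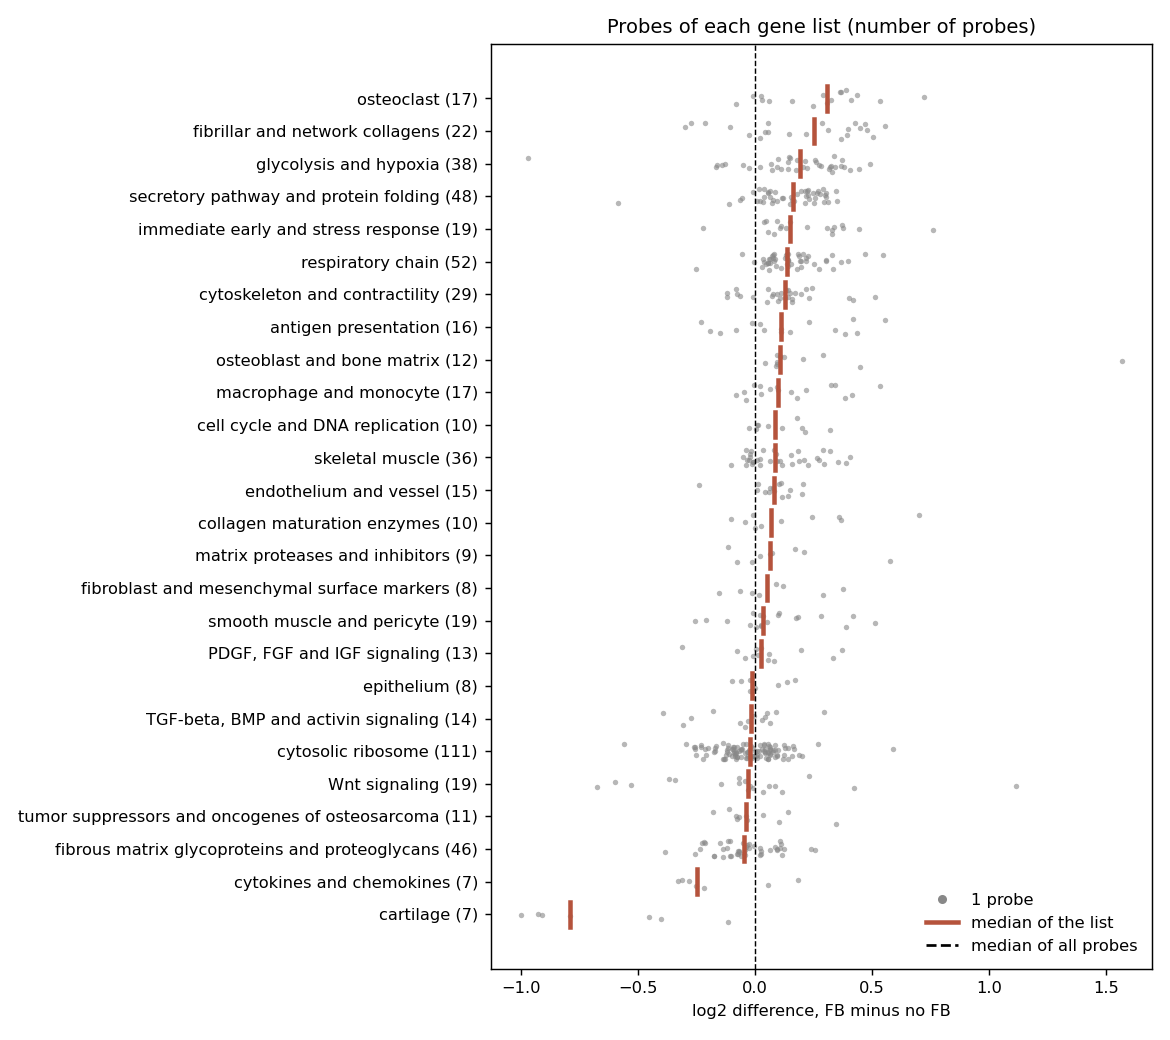
Log2 difference, FB minus no FB (x axis), of each probe (gray points) of the gene lists with at least 7 probes, with the number of probes in parentheses, the list's median as a bar and the median of all probes as a dashed line. The osteoclast list had the highest median (0.305) and the cartilage list the lowest (-0.792); no single probe passed the test.

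**Figure D4:**
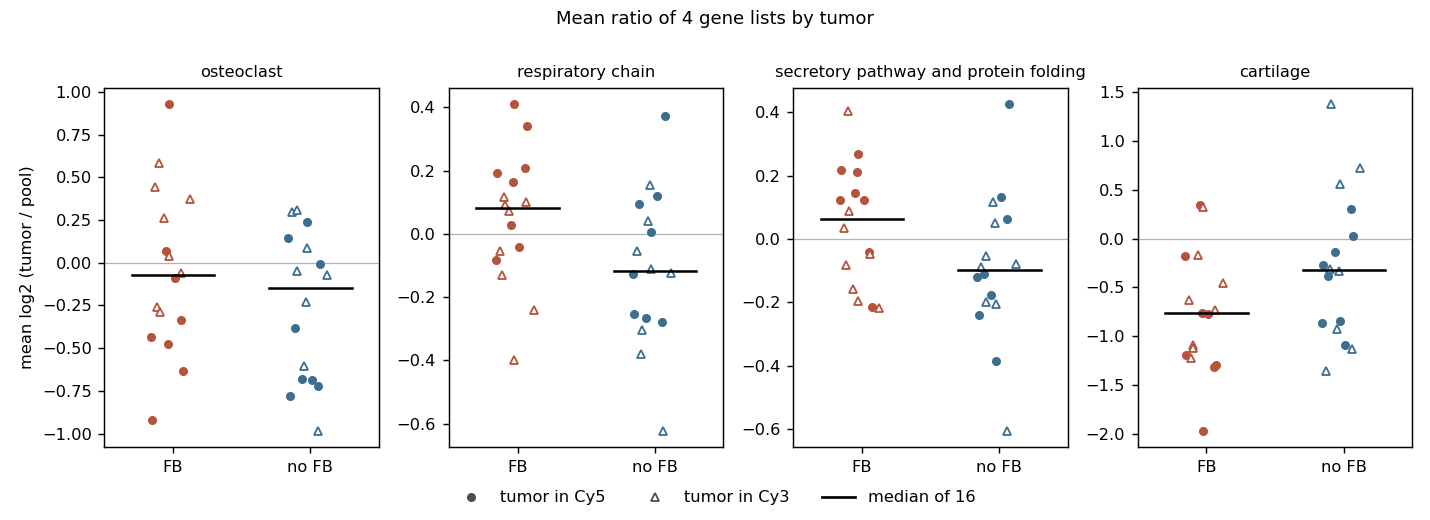
Mean log2 ratio of tumor over pool (y axis) over the genes of 4 lists in each of the 16 tumors with FB (left) and the 16 without (right), with filled circles for Cy5 and open triangles for Cy3 tumors and the bar at the group median. The groups overlapped in every list; the medians of the respiratory chain were 0.08 with FB and -0.12 without, and those of cartilage -0.77 with FB and -0.32 without.

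The named genes with the smallest p reached adjusted values no lower than 0.503. With a positive difference, after ATP6V1E1, came NEIL3, a DNA glycosylase of dividing cells (0.38, SE 0.10, second probe -0.05), ATP6V1F, the lysosomal membrane protein GPR137B (0.32, SE 0.09), IER3IP1 of the endoplasmic reticulum (0.33, SE 0.09), LOC477508 (0.53, SE 0.15), UQCR10, the lipase ABHD16A (0.20, SE 0.06, second probe -0.02), SPCS3, NDUFC1, the ubiquitin ligase UBE4A (0.38, SE 0.11, second probe -0.03) and RAB12, a small GTPase of endosomes (0.32, SE 0.09, other probes 0.04 to 0.22). For NEIL3, ABHD16A and UBE4A the second probe of the gene thus did not show the difference of the first.

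With a negative difference, after FRZB, came SIAE, a sialic acid esterase (-0.36, SE 0.10, second probe -0.13), BPIFA3 (-0.27, SE 0.08), ARMCX5 (-0.28, SE 0.09), TRAPPC13, of a vesicle tethering complex (-0.20, SE 0.06), LOC475395 (-0.21, SE 0.06, second probe 0.0048), COQ10A, a coenzyme Q binding protein (-0.39, SE 0.12), ATP23, a mitochondrial protease (-0.50, SE 0.16), the small GTPase RAB28 (-0.24, SE 0.08), RPL10A, EMILIN1 and ZBTB20, a transcriptional repressor (-0.25, SE 0.08). The second probe of COQ10A had the opposite sign, 0.18 (SE 0.07). All 24 genes kept their sign within Cy5, Cy3, SS and LS tumors. They were chosen by p over the same tumors, so this is a description and not an independent check. Of the 25 probes with the smallest p of all, 22 carried no symbol and 22 had a negative difference, the largest of them -1.89 (SE 0.50).

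**Figure D5:**
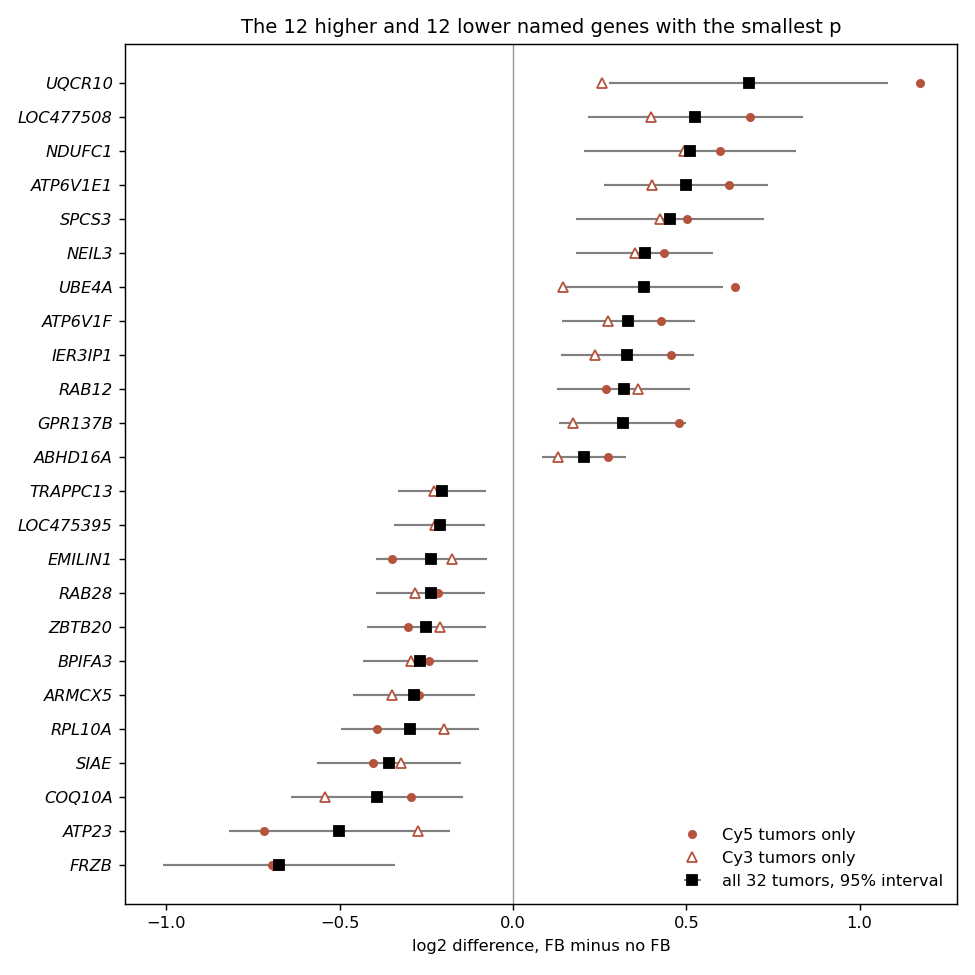
Log2 difference, FB minus no FB (x axis), of the named genes, 12 above and 12 below 0, that had the smallest p, 1 probe a gene, with squares and 95% intervals for all 32 tumors, filled circles for Cy5 and open triangles for Cy3 tumors only. Differences ran from -0.68 (FRZB) to 0.68 (UQCR10). Both orientations lay on the same side of 0, for genes chosen by p over both. None passed after adjustment.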

How the data were processed

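RNA of 32 tumors, each against the common pool, was measured on 1 array a tumor. The deposited values are log ratios, read here as log2: the authors flagged defective spots, normalized by print-tip Lowess, log transformed and switched dye-swapped arrays. Image software and log base are not given in the sources used here. The direction, tumor over pool, was checked with the pool itself, which held all tumors: for 36 genes the log2 of the mean ratio had a median of 0.04 (-0.31 to 0.12) in this direction and of 0.62 (0.36 to 1.46) in the other. Read as natural log or log10, that median was 0.30 or 2.83. Arrays of opposite orientation correlated at a median of -0.26 across probes, and those of the same orientation at 0.02 or more (Cy5) and 0.00256 or more (Cy3). The 5 missing values were left missing.

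Tumors with and without FB were compared per probe with limma 3.58.1 in R 4.3.3 (lmFit, eBayes, two-sided), with dye and survival group as covariates and Benjamini-Hochberg adjustment over 22176 probes at 0.10, the study's false discovery rate. The study's Significance Analysis of Microarrays was not rerun. The fit was tested on simulated data. The split, the 33 gene lists (349 genes with a probe, 624 probes) and the genes named were chosen with earlier results of these data known. Lists are described by counts and medians only. Named genes are the 12 positive and 12 negative differences with the smallest p, fixed markers, and up to 4 members of each list by p. The probe with the smallest p stands for a gene. Symbols came from the platform annotation, and 7340 probes were matched by gene identifier, which changed 0 symbols. Alternatives covered covariates, samples, scaling, weights, filters and the sign of the Cy3 arrays.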

Additional observations from a re-analysis of the deposited data

How the results depend on the processing

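The count of probes called stayed at 0 in each of the 25 alternatives and with each of the 32 tumors left out in turn (0 to 0), and the smallest adjusted p was 0.281 to 1 over the alternatives and 0.267 to 0.869 with 1 tumor left out. The lowest among the alternatives came without the chondroblastic tumors. Unadjusted counts moved with the setting, with 1008 probes without covariates and 637 with the sign of the Cy3 arrays turned, against 1574 as reported. The 24 genes with the smallest p were followed over 566 values, and 9 changed sign, all with the Cy3 arrays turned: ARMCX5 (0.0384), BPIFA3 (0.0341), COQ10A (0.144), FRZB (0.0755), LOC475395 (0.0175), NDUFC1 (-0.0229), RAB12 (-0.0599), RAB28 (0.034) and TRAPPC13 (0.0155). That setting goes against the direction found with the pool. Of 3019 values of the other named genes, 163 changed sign and 6 moved by 1 SD or more.

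List medians were less even, and 26 of 33 changed sign or moved by over 1.5 times when some 1 tumor was left out. With 1 tumor left out the osteoclast median was 0.226 to 0.355, the respiratory chain 0.113 to 0.156, the secretory pathway 0.125 to 0.199, glycolysis and hypoxia 0.152 to 0.23 and cartilage -0.986 to -0.622, whereas collagens went from 0.0785 to 0.361 and osteoblast and bone matrix from 0.0504 to 0.276. With the Cy3 arrays turned, osteoclast became -0.01, the respiratory chain 0.0401, the secretory pathway 0.0181, the interferon response -0.142, cartilage 0.185, collagens -0.315 and osteoblast and bone matrix -0.274. Without tumor 22 the COL5A2 difference was 0.33, SPARC -0.09, FN1 0.09, COL1A2 -0.60 and the cytoskeleton list 0.0704. Without tumor 4 COL1A2 was -0.08 and MARCO 0.24, without tumor 1 DCN was -0.10, DKK3 -0.20 and UCMA -0.04, without tumor 29 ALPL was 0.22 and MATN2 -0.23, without tumor 14 PHEX was 0.11, without tumor 13 CTSK was 0.05, without tumor 30 CTSK was 0.40, and without tumor 21 the cytokine and chemokine list was -0.0899. Of 151 genes followed, 62 changed sign or moved by over 1.5 times with some 1 tumor left out, and of the 24 with the smallest p, 0. Those 24 were chosen by p over the same tumors, so that count of 0 is not an independent check. Tumors 10, 20 and 28 left out together, a setting chosen after seeing the data, gave SPP1 1.39, COMP -1.19 and COL2A1 -1.22. The number of tumors and the dye effect limit the precision. No paired analysis was possible because tumors with and without FB share no replicate number.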

Other observations

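No member of the remaining lists passed. Immediate early and stress genes had a median of 0.147 (18 of 19 probes above 0) and the smallest p values at the chaperone genes DNAJB1 (0.08, SE 0.04) and HSP90AB1 (0.44, SE 0.26), while another, HSPH1, had 0.76. Antigen presentation had 0.111 (11 of 16), with the class I gene DLA88 at 0.56 (SE 0.28) and the peptide transporter TAP1 at 0.34 (SE 0.20). Interferon response had 0.409 on only 3 probes, with OAS2 at 0.41 (SE 0.21). Endothelium and vessel had 0.08 (14 of 15), with -0.0529 in Cy5 and 0.134 in Cy3 tumors. In that list TEK, the angiopoietin receptor, was the exception at -0.24 (SE 0.09). For TEK, 2 of 16 FB tumors lay above the mean of the tumors without FB.

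Muscle lists had medians of 0.09 (skeletal, 24 of 36 above 0) and 0.03 (smooth muscle and pericyte, 14 of 19). The skeletal median was -0.0444 in Cy5 and 0.167 in Cy3 tumors, and the smooth muscle median -0.0951 and 0.196. TPM1, a tropomyosin, had 0.51 (SE 0.24), -0.10 in Cy5 and 0.98 in Cy3 tumors. Cell cycle had 0.09 (9 of 10), with 0.144 in Cy5 and -0.0541 in Cy3 tumors. Matrix proteases and inhibitors had 0.06 (6 of 9) and T and NK lymphocytes 0.05 (5 of 6). PDGF, FGF and IGF signaling had 0.03 (9 of 13), with -0.048 in Cy5 and 0.0778 in Cy3 tumors. B lymphocytes and plasma cells had 0.10 on 2 probes. TGF-beta, BMP and activin signaling had -0.02 (6 of 14), although SMAD2, a signal transducer of that pathway, had 0.29 (SE 0.10). Medians were -0.01 for epithelium (3 of 8), -0.02 for adipocyte (1 of 5), -0.02 for mesenchymal transcription factors (1 of 4), -0.05 for erythroid and marrow (1 of 3), -0.08 for nervous and Schwann cell (0 of 5), -0.04 for tumor suppressors and oncogenes of osteosarcoma (4 of 11) and -0.25 for cytokines and chemokines (2 of 7).

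The purely fibroblastic, low-grade tumor 28 had ratios of 1.80 for SPP1, 1.78 for ALPL, 1.26 for SPARC, 0.51 for COL1A2 and 0.62 for DCN. It was thus among the tumors with the highest SPP1 and ALPL ratios, with no osteoblastic component named. It was a Cy3 tumor, and these ratios are not adjusted for dye.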
